A study of Rattus norvegicus with 4 samples.

Results

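General adipocyte genes, 5 in all and fixed by Ensembl identifier, were followed among the 26313 identifiers listed for each sample. They were Pparg (ENSRNOG00000008839), Adipoq (ENSRNOG00000001821), Lep (ENSRNOG00000005924), Fabp4 (ENSRNOG00000010805) and Lpl (ENSRNOG00000012181), and all 5 were above 0 in all 4 samples. RNA-Seq was performed on arteries of untreated adult male Sprague-Dawley rats, with 2 samples of thoracic aorta (AO1 and AO2), a conduit artery, and 2 samples of the mesenteric arterial arcade (MA1 and MA2), a bed of small resistance arteries. By the study's methods a single rat gave AO1 and MA1 and further rats gave AO2 and MA2, and the mesenteric arcade was dissected without the superior mesenteric artery and cleaned of fat. The question addressed here was how much adipocyte mRNA each vessel carried and whether AO and MA differed in it.

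Arteries lie in perivascular fat, and whole vessel RNA includes the RNA of any fat left on the wall. PPARγ, encoded by Pparg, is the nuclear receptor that directs adipocyte differentiation and activates many lipid genes. Adiponectin (Adipoq) and leptin (Lep) are hormones secreted by adipocytes, Fabp4 is the fatty acid-binding protein of the adipocyte cytosol, and lipoprotein lipase (Lpl) releases fatty acids from circulating triglycerides. The perivascular fat of the rodent thoracic aorta is known for its resemblance to brown fat, and the mesenteric fat for its resemblance to white fat. Pparg, Fabp4 and Lpl are also made in other cells, among them endothelium and macrophages, whereas adiponectin is the most adipocyte-restricted of the set. In whole vessels, fewer adipocytes and less of an mRNA in each adipocyte cannot be told apart.

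The files list identifiers and no gene symbols, so the pairing of each identifier with its symbol was taken as given, and the smooth muscle, endothelial and other cell markers of the vessels were not checked here. The deposited unit is RPKM, reads per kilobase of gene length scaled to the reads of the library. The lengths solved from these values were 124.4 kb for Pparg, 18.7 kb for Adipoq, 26.8 kb for the Lep identifier, 4.66 kb for Fabp4 and 24.4 kb for Lpl. These are lengths of gene models and not of spliced mRNAs, so a low RPKM for Pparg goes with a long gene, and levels are compared below between samples and not between genes. The reads recovered on genes ranged from 72520231 to 82446281 per sample. The 10 genes with the most reads took 43.8% and 35.9% of them in AO1 and AO2, and only 18.5% and 16.3% in MA1 and MA2. Because these shares leave fewer reads for all other genes in AO, each sample's RPKM were rescaled by a median-of-ratios factor, from 0.789 for AO1 to 1.22 for MA1, and the result is called scaled RPKM. This moved the median log2 difference AO minus MA over the 7203 genes tested from -0.37 to 0.05.

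Adipoq was abundant in each of the 4 samples. Its scaled RPKM was 61.9 and 49.8 in AO1 and AO2, and 60.7 and 22.0 in MA1 and MA2. MA1 thus lay between the AO samples, and MA2 was the only sample that stood below the rest. By RPKM, Adipoq ranked 436th from the top in AO1, 507th in AO2, 396th in MA1 and 777th in MA2. The reads behind these values were 82655 and 73075 in AO1 and AO2, and 115498 and 42379 in MA1 and MA2. The means were 55.9 ± 8.57 (SD, n = 2) in AO and 41.3 ± 27.4 (SD, n = 2) in MA. The log2 difference AO minus MA was 0.60 (standard error 0.53, 95% interval -0.84 to 2.03, adjusted p = 0.567 from limma), so the tissues did not differ beyond the spread between samples. As deposited, without scaling, the mean RPKM was 46.8 in AO and 49.7 in MA. Without MA2 the log2 difference turned to -0.12.

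Fabp4 was higher in both AO samples. Its scaled RPKM was 787.4 and 583.3 in AO1 and AO2, and 275.1 and 88.4 in MA1 and MA2, so that the lowest AO sample was above the highest MA sample. In MA1 it was 3.11 times the value in MA2, a larger spread than the 1.35-fold between AO1 and AO2. The mean was 685.4 ± 144.3 (SD, n = 2) in AO and 181.7 ± 132.1 (SD, n = 2) in MA, a ratio of 3.77. The log2 difference AO minus MA was 2.12 (standard error 0.61, 95% interval 0.48 to 3.75). Although 2.75% of the genes tested were at least as far apart in either direction, Fabp4 did not pass the limits (unadjusted p = 0.0222, adjusted p = 0.124 from limma). With MA2 as the only MA sample the log2 difference was 2.94, and with MA1 as the only MA sample it was 1.30.

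Lpl followed the order of Fabp4. Its scaled RPKM was 98.8 and 56.1 in AO1 and AO2, and 46.7 and 15.3 in MA1 and MA2, with AO2 close to MA1. The mean was 77.4 ± 30.2 (SD, n = 2) in AO and 31.0 ± 22.2 (SD, n = 2) in MA. The log2 difference AO minus MA was 1.46 (standard error 0.63, 95% interval -0.24 to 3.15, adjusted p = 0.252 from limma). As deposited, the RPKM of MA1 was 57.0 and lay between 78.0 in AO1 and 50.3 in AO2, so the separation of the tissues for Lpl depended on the scaling.

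Pparg, the regulator of the set, fell under the filter on low values, since its RPKM reached 1 in AO1 only, and was therefore not among the genes tested. The low values did not come from few reads, as 12756 and 7745 were recovered in AO1 and AO2, and 5048 and 2064 in MA1 and MA2. Its scaled RPKM was 1.44 and 0.795 in AO1 and AO2, and 0.399 and 0.161 in MA1 and MA2. Both AO samples were above both MA samples, and the mean was 1.12 ± 0.456 (SD, n = 2) in AO and 0.280 ± 0.168 (SD, n = 2) in MA, a ratio of 3.99. With 0.5 added to each value the log2 difference AO minus MA was 1.04, a figure compressed by the addend at this level. With a filter of 0.1 RPKM and no addend, a setting chosen after the data were seen, the log2 difference was 2.08 (standard error 0.57, 95% interval 0.54 to 3.61), and Pparg did not pass the limits among 13610 genes (adjusted p = 0.148 from limma). In that fit 3.23% of the genes were called. The study's own count test on these samples, not repeated here, called Pparg higher in AO.

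For Pparg and Adipoq, the 250 bases before the annotated start are shown in RefSeq's GRCr8, an assembly other than that of the deposited values, because Pparg is the regulator of the set and Adipoq its most adipocyte-restricted member. Capitals mark the CCAAT box, searched on both strands as CCAAT.
Pparg, first start site (chr4:150096808-150097057, plus strand): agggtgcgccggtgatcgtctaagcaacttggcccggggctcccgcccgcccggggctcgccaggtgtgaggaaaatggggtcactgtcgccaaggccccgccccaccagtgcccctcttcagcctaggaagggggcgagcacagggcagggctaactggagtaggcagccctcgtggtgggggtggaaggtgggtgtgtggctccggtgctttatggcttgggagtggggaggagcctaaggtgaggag
Pparg, second start site (chr4:150154522-150154771, plus strand): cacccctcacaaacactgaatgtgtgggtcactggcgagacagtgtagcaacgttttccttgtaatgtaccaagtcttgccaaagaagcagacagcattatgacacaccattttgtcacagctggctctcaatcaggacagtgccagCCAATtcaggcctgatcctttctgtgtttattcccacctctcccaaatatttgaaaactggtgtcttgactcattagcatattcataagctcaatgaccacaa
Adipoq (chr11:91240170-91240419, minus strand): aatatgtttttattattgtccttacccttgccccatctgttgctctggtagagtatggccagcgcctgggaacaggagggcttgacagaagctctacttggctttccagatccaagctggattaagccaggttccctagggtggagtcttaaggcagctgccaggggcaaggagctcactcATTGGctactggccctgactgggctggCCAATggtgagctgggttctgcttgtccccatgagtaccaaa
The window at the first Pparg start held no CCAAT, that at the second held 1, and that of Adipoq held 2, one on each strand. Of 33469 windows of this length in the annotation, 34.0% held at least 1 CCAAT. The TATAA element and the nuclear receptor half-site AGGTCA, present in 24.0% and 14.1% of all windows, were not found in these windows. These matches describe the letters of the windows and no binding was measured.

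The Lep identifier went the other way. Its scaled RPKM was 9.68 and 14.8 in AO1 and AO2, and 21.4 and 40.3 in MA1 and MA2, with both MA samples above both AO samples. The AO mean was 12.2 ± 3.62 (SD, n = 2) and the MA mean 30.8 ± 13.3 (SD, n = 2), a ratio MA to AO of 2.52, or 3.48 with the RPKM as deposited. The log2 difference AO minus MA was -1.26 (standard error 0.40, 95% interval -2.33 to -0.18), and it did not pass the limits (unadjusted p = 0.0308, adjusted p = 0.149 from limma). With 111141 reads in MA2, 58256 in MA1, 31054 in AO2 and 18484 in AO1, this row held 2.62 times the reads of Adipoq in MA2 and 0.224 times in AO1. MA2, the sample lowest in the other 4 genes, was highest here. Because leptin is an adipocyte hormone and this row went against the other 4 genes both between AO1 and AO2 and between MA1 and MA2, the row is called by its identifier. The length solved for it was also 1.90 times the span of Lep in RefSeq's GRCr8, an assembly other than that of the deposited values. The same ratio was 0.992 for Pparg, 0.990 for Fabp4, 0.948 for Lpl and 1.36 for Adipoq. Whether the reads of this row come from leptin mRNA was not tested, and its values are those of the identifier.

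**Figure D1:**
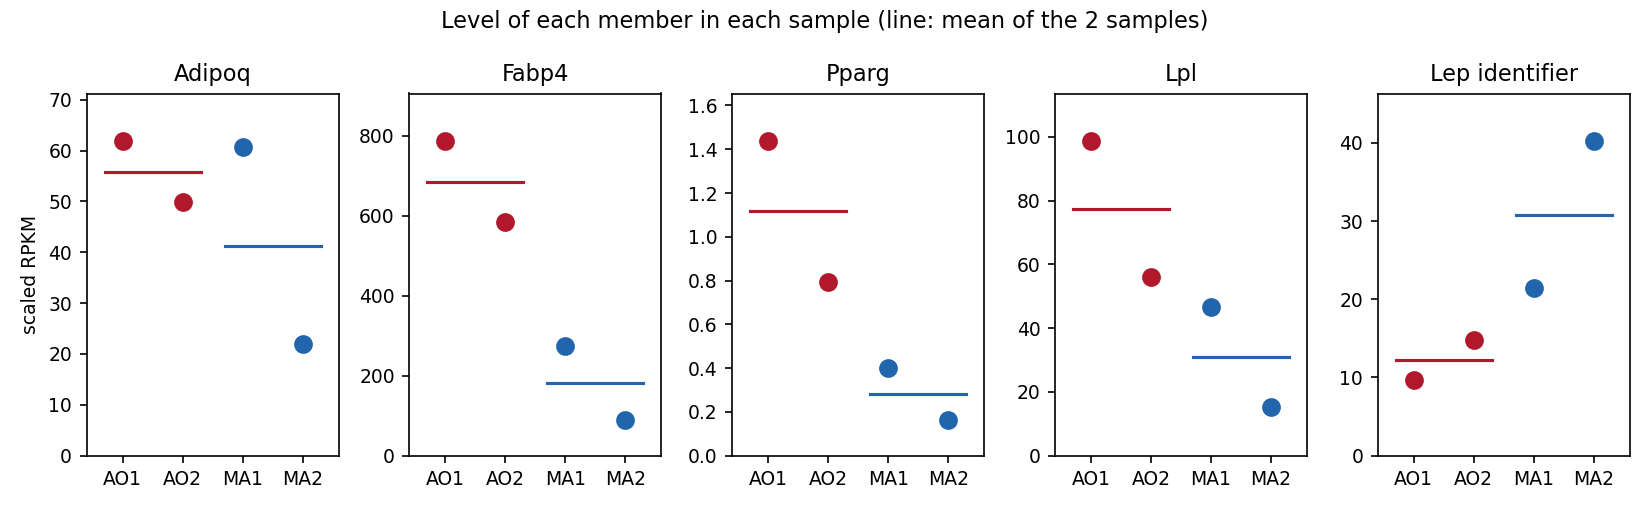
Scaled RPKM (vertical axes, each from 0, a scale of its own for each gene) of the 5 members in AO1 and AO2 (red) and MA1 and MA2 (blue), with a line at the mean of each tissue. Adipoq in MA1, at 60.7, lies among the AO samples, Fabp4, Pparg and Lpl descend from AO1 to MA2, and the Lep identifier ascends from 9.68 to 40.3.

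With limma across the 7203 genes tested, 0 of the 4 members tested passed an adjusted p of at most 0.05 with more than a 2-fold difference, and 2 of the 4, Fabp4 and the Lep identifier, had an unadjusted p of at most 0.05, as did 25.3% of all genes tested. The same limits called 7.71% of all genes tested, 6.77% higher in AO and 0.93% higher in MA. On scaled RPKM, Fabp4, Lpl and Pparg had both AO samples above both MA samples, as did 34.4% of the genes tested, Pparg not among them. The Lep identifier had both MA samples above both AO samples, as did 21.9%. These shares are large enough that the separation of single members is not particular to them. The median log2 difference AO minus MA was 1.03 over the 4 members tested, the Lep identifier included, and 0.05 over all genes tested.

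**Figure D2:**
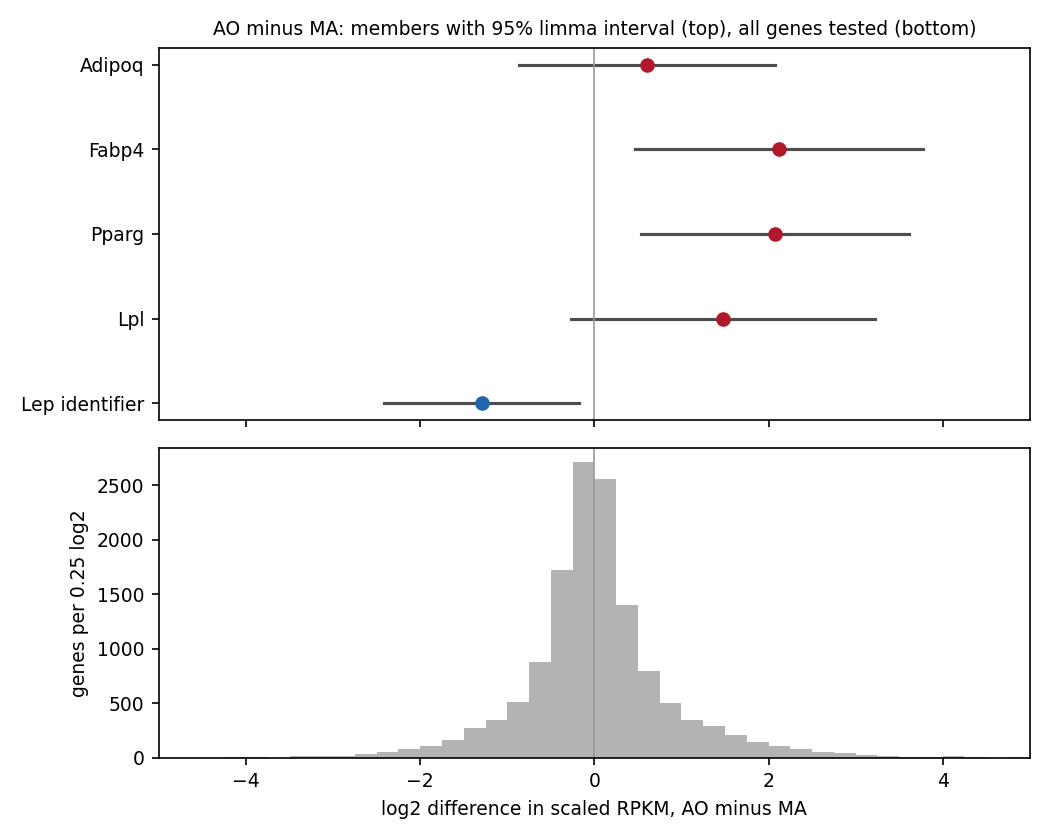
Log2 difference in scaled RPKM, AO minus MA, without an addend, for the 5 genes with the 95% interval from limma (top) and for 13610 genes above 0 in each sample and at 0.1 RPKM or more in 2 or more of them (bottom, genes per bin, 42 of them outside the axis). The intervals of Fabp4 and Pparg lie above 0, that of the Lep identifier below 0, and those of Adipoq and Lpl include 0, while none of the 5 passed after adjustment over all genes.

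The spread between the MA samples was wide for these genes. From MA2 to MA1, scaled RPKM was 2.76-fold higher for Adipoq, 3.11-fold for Fabp4, 3.05-fold for Lpl and 2.48-fold for Pparg. The median fold between MA1 and MA2, whichever was higher, was 1.22 over 7193 genes, and 3.21% of them were at least as far apart as Fabp4 and 5.38% as far as Pparg. These 4 genes thus moved together between the MA samples by about the same factor. Between the AO samples, AO1 was the higher, by 1.24-fold for Adipoq, 1.35-fold for Fabp4, 1.76-fold for Lpl and 1.81-fold for Pparg. The median fold between AO1 and AO2 was 1.18, and 39.1% of the genes were at least as far apart as Adipoq, 27.5% as Fabp4, 10.8% as Lpl and 10.02% as Pparg, so Adipoq and Fabp4 were not unusual in their spread between the AO samples. The Lep identifier was 1.88-fold higher in MA2 than in MA1 and 1.53-fold higher in AO2 than in AO1, against the direction of the other 4 in both tissues. The part of dissection, depth or the rat in this spread was not tested.

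**Figure D3:**
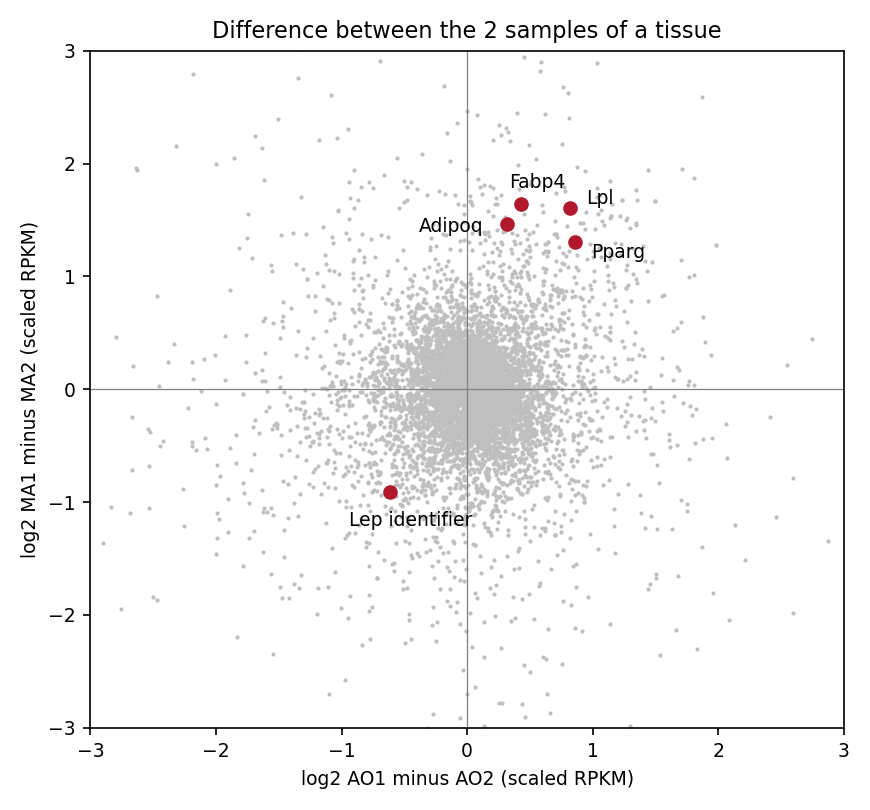
Log2 AO1 minus AO2 (horizontal) against log2 MA1 minus MA2 (vertical) in scaled RPKM, for 7193 genes above 0 in all samples (grey, 30 of them outside the axes) and the 5 members (red). Adipoq, Fabp4, Lpl and Pparg lie together at 1.31 to 1.64 on the vertical axis, and the Lep identifier lies in the opposite quadrant at -0.91.

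By scaled RPKM, the order of the samples was the same for 3 members. From high to low, Pparg, Fabp4 and Lpl ran AO1, AO2, MA1 and MA2, as did 13% of the genes tested, Pparg not among them. The Lep identifier ran in the exact reverse, as did 9.09% of the genes tested. Adipoq matched neither order, with MA1 between AO1 and AO2. The order of Lpl depended on the scaling, since its RPKM as deposited was 57.0 in MA1 and 50.3 in AO2.

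Ratios within a sample do not depend on the scaling between samples, so each member was also set against Adipoq. For Fabp4, the RPKM per Adipoq RPKM was 12.7 and 11.7 in the AO samples and 4.54 and 4.02 in MA1 and MA2. These ratios differed by 1.13-fold between the MA samples, in which the level of Fabp4 itself differed 3.11-fold, and by 2.86-fold between the tissues. The ratio to Adipoq thus set the tissues apart with less spread between samples than the level of Fabp4 did.

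Lpl gave a ratio of 1.60 and 1.13 in AO1 and AO2, and 0.770 and 0.698 in MA1 and MA2. For Pparg the ratio was 0.0232 and 0.0160 in AO1 and AO2, and 0.00658 and 0.00733 in MA1 and MA2. Both MA samples lay below both AO samples for each gene, by 1.83-fold for Lpl and 2.77-fold for Pparg between the tissue means on the log2 scale. The Lep identifier behaved differently, with 0.156 and 0.297 in AO1 and AO2, and 0.353 and 1.83 in MA1 and MA2. Here MA1 was close to AO2, and the MA samples were 5.20-fold apart. Set against Fabp4 instead, the RPKM of the Lep identifier per Fabp4 RPKM was 0.0123 and 0.0254 in AO1 and AO2, and 0.0777 and 0.456 in MA1 and MA2. No model was fitted to these ratios and they are given as a description, without a test. The share of all genes whose ratio to Adipoq sets the tissues apart was not counted. The separation of the Fabp4, Lpl and Pparg ratios is therefore not read as particular to these members.

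**Figure D4:**
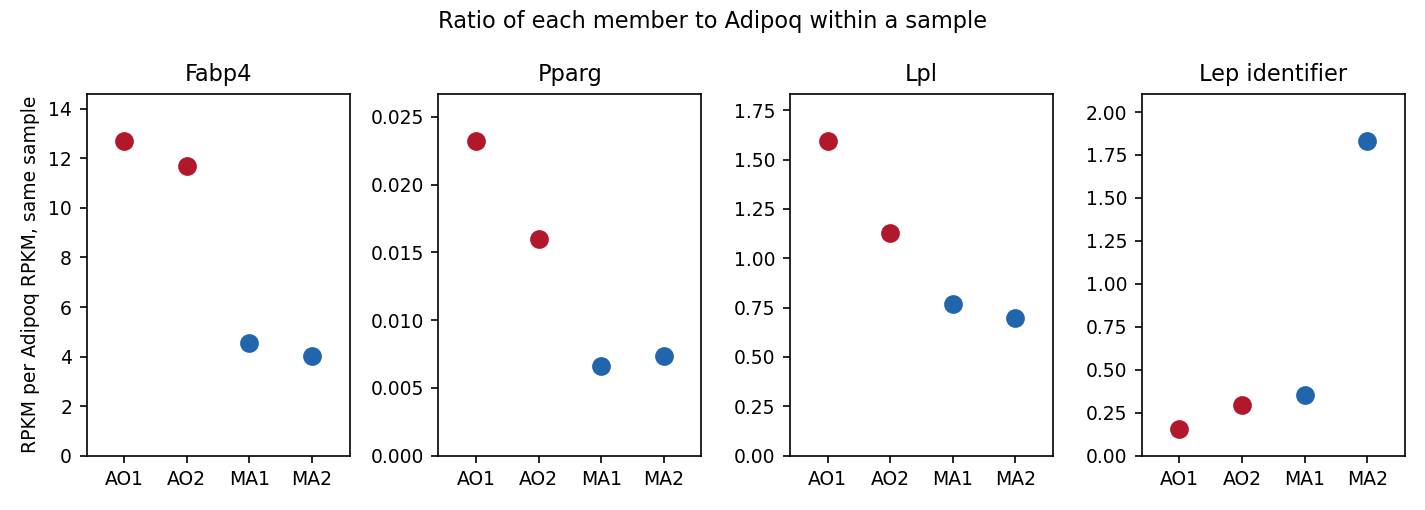
RPKM of Fabp4, Pparg, Lpl and the Lep identifier per RPKM of Adipoq in the same sample (vertical axes from 0, a scale of its own for each gene), for AO1 and AO2 (red) and MA1 and MA2 (blue). The ratios of Fabp4 in MA, 4.54 and 4.02, lie close together and below the 12.7 and 11.7 of AO, while the Lep identifier reaches 1.83 in MA2 and 0.353 in MA1.

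As a measure of the fat left on each vessel, the members did not give a single ranking of the samples, with or without the Lep identifier. By scaled RPKM, Adipoq placed MA1 between the AO samples, Fabp4, Pparg and Lpl placed it below both, and the Lep identifier placed it above both. With the RPKM as deposited, Adipoq placed MA1, at 74.0, above AO1 and AO2, at 48.9 and 44.7. Lpl then placed MA1, at 57.0, between AO1 and AO2, at 78.0 and 50.3. MA2 was the lowest sample for each member except the Lep identifier.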

How the data were processed

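RNA-Seq values of 2 AO and 2 MA samples were used, grouped by the sample titles. By the study's methods, the authors aligned paired-end reads to the Ensembl rat genome with TopHat. They left out reads that mapped to more than 2 places and counted reads by gene. The deposited values are RPKM, these counts over length and library size. The study's methods name the length of the mRNA, whereas the lengths solved here are those of gene models. The authors' count test was not repeated.

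RPKM were rescaled by the median-of-ratios method, using genes above 0 in each sample, and tested as log2(scaled RPKM + 0.5), on which differences of low genes are compressed. The 7203 genes that reached 1 RPKM in 2 or more samples were tested with limma 3.58.1 in R 4.3.3 (lmFit, eBayes with a trend, Benjamini-Hochberg), without a block. A call needed an adjusted p up to 0.05, a difference above 2-fold, and MA1 and MA2 lying on 1 side of the mean of AO. The p-values measure only the spread between these few samples.

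Library sizes (83311442 to 90305293), gene lengths and whole reads were derived from the steps between RPKM values (numpy 2.4.6, numba 0.67.0), and all 20747 genes above 0 gave whole reads within the tolerance used, which does not prove the reads. They may differ from mapped reads, and are too few where all samples share a divisor. Both steps were run on simulated data, and the outcome is not used here as support. The simulation for limma gave all genes the median spread between samples, narrower than that of these members between MA1 and MA2.

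The members and lists were chosen with earlier results of these data known. The named genes are the 5 members, and 2 identifiers nearest to the mean profile of the members tested. The RefSeq table of GRCr8 gives an Ensembl identifier for 0 of its 47357 genes, and the planned lists of other adipocyte genes and of cell type markers were not matched and are not reported here. Promoter windows of Fabp4 and Lpl were not used here. Alternatives covered scaling, addend, filter, trend, replicate block, single samples left out, and limma-voom on recovered reads. The fits with no addend were added after the data were seen.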

Additional observations from a re-analysis of the deposited data

How the results depend on the processing

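Adipoq, Fabp4, Lpl and the Lep identifier were tested in 13 alternatives that kept all 4 samples and Pparg in 4, and none was called in these. Their adjusted p from limma ranged from 0.0609 to 0.298 for Fabp4, 0.0536 to 0.318 for the Lep identifier, 0.0679 to 0.446 for Lpl, 0.408 to 0.890 for Adipoq and 0.143 to 0.270 for Pparg. The lowest value of Fabp4, the Lep identifier and Lpl came from the fit with a replicate block on the sample number, which left Fabp4 at a log2 difference of 2.12, while the genes called higher in MA rose from 67 to 107 with it, and 447 genes were called with and without it. The same-numbered samples were not paired, since only AO1 and MA1 share a rat, and over genes the AO1 to AO2 differences correlated with the MA1 to MA2 differences at 0.018.

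Leaving out 1 sample leaves 1 sample in a tissue, which is assumed to vary like the pair in the other tissue. The log2 difference AO minus MA then ranged from -0.12 to 1.33 for Adipoq, reversed without MA2. For Fabp4 the difference ranged from 1.30 without MA2 to 2.94 without MA1. The ratio of Pparg to Adipoq, 0.44 as a log2 difference with 0.5 added, ranged from -0.058 without MA1 to 0.94 without MA2. With nothing added, this ratio was 0.00658 in MA1 and 0.00733 in MA2, both below 0.0232 in AO1 and 0.0160 in AO2. Leaving out either MA sample therefore does not change its sign when nothing is added. The genes higher in AO ranged from 0 to 135, against 488, and those higher in MA from 0 to 64, against 67.

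The addend changed Pparg, whose log2 difference was 1.04 with 0.5, 1.70 with 0.1, 2.08 with none and 2.08 with limma-voom on at least 10 recovered reads. Its ratio to Adipoq was 1.10 with 0.1 and 1.47 with none. At this RPKM the addend is of the size of the values themselves, and the other members moved little.

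Over all genes, 260 were higher in AO and 170 in MA with the RPKM as deposited, and 0 in either tissue with no filter, where 20747 genes were tested. Genes higher in MA were 43 with an addend of 1, 39 with a filter of 0.1 RPKM, 40 with limma-voom on at least 10 recovered reads and 134 with an FDR of 0.1. Beyond the effect of fewer samples the cause was not tested. In the other alternatives Pparg lies under the filter and has no test. Each member had 2064 reads or more in each sample, and no fit was made at matched depth.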

Other observations

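Among the genes tested, members aside, the 2 nearest to the mean profile of the 4 members tested, by Euclidean distance of centred log2(scaled RPKM + 0.5) over the 4 samples, were ENSRNOG00000003291 at a distance of 0.0996 and ENSRNOG00000000815 at 0.119. The scaled RPKM of ENSRNOG00000003291 was 1.92 and 1.70 in AO1 and AO2, and 1.45 and 0.567 in MA1 and MA2. The mean profile includes the Lep identifier, which runs against the other members.

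Over the 4 samples the profiles of Pparg and Fabp4 were the closest pair of members, at a distance of 0.382 in centred log2 scaled RPKM, and those of the Lep identifier and Fabp4 were the farthest apart at 3.93.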
